A study of Drosophila melanogaster with 21 samples.

Results

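Ilp8 (CG14059, also written dilp8) was followed across mosaic eye-antennal discs of Drosophila melanogaster larvae. The array annotation gave Ilp8 alone to 1 probe set out of 18769 that were tested, of which 13647 carried 1 gene symbol. No second probe set named it, so every value below comes from the same probes. The RefSeq gene table of the assembly Release 6 plus ISO1 MT places the gene on chromosome 3L from 17029812 to 17032080, a span of 2269 bases with 1 annotated transcript.

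Ilp8 encodes a secreted peptide of the insulin and relaxin family. In Drosophila larvae it is known as the signal by which damaged or overgrowing imaginal discs hold back metamorphosis: the peptide reaches the relaxin-type receptor Lgr3 in the brain, and the output of ecdysone, the moulting steroid made in the ring gland, is delayed. Its transcription in discs is known to respond to the Jun N-terminal kinase (JNK) pathway, whose kinase in flies is Basket, and to the Hippo and JAK-STAT pathways.

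The 21 arrays fell into 7 groups of 3. All discs were dissected from larvae of the last instar on day 5 after egg deposition, in a w1118 background, and carried clones made by FLP recombinase from an eyeless promoter on FRT chromosomes, with transgenes driven in the clones by GAL4 from a tubulin promoter. The groups were scrib mutant clones expressing the BTB zinc finger transcription factor Abrupt (scrib-+ab), clones expressing Abrupt alone (ab), scrib mutant clones expressing RasV12 and dominant-negative Basket (scrib-+RasACT+bskDN) or RasV12 without it (scrib-+RasACT), scrib mutant clones expressing the Notch intracellular domain and dominant-negative Basket (scrib-+NACT+bskDN) or the Notch domain without it (scrib-+NACT), and FRT control clones with no transgene under study. The scrib mutant groups are described as tumours, and the ab and FRT control groups as free of them. No group carried scrib mutant clones without an oncogene, and none carried bskDN alone. RNA came from whole discs, in which clones and the wild-type cells around them are mixed, so a larger share of cells that transcribe Ilp8 and more Ilp8 RNA per cell cannot be told apart. The study's methods state that the control RNA was made from more pairs of discs than the ab and scrib-+ab RNA. They add that samples of these 3 groups were prepared in triplicate. Whether the arrays of a group came from separate collections of larvae is not said. The p-values therefore measure only how far these arrays scatter, and some of that scatter may be technical.

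The deposited values are log2 signals, and 1 unit is a doubling. Their lowest value was 2.17, at which 2149 probe sets sat on every array. The 6 arrays of scrib-+ab and ab stood apart from the other 15 in their controls: the mean log2 signal of the poly-A spike probe sets was 2.20 to 2.33 against 6.20 to 8.54, and the 5′ minus 3′ log2 signal of the GAPDH control probe sets was -3.69 to -2.20 against -0.67 to -0.29. Genotype and the handling of the RNA cannot be told apart wherever those 6 arrays are set against the rest, the FRT control included. Markers of the eye-antennal disc were detected in all groups: the mean log2 signal of 8 such genes, among them so, eya, ey and Dll, lay between 8.89 and 10.5 on every array.

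Ilp8 was above the lowest value on all 21 arrays and was lowest in the FRT control. In scrib-+ab tumours the log2 signal was 10.62, 10.11 and 11.66 (10.80 ± 0.79, SD, n = 3). In ab discs it was 8.69, 9.31 and 9.43 (9.14 ± 0.40). No ab array reached the scrib-+ab range. In scrib-+RasACT+bskDN tumours the values were 8.25, 8.35 and 8.14 (8.25 ± 0.10), and in scrib-+RasACT tumours they were 11.50, 11.74 and 11.30 (11.51 ± 0.22), the highest mean of the 7 groups. In scrib-+NACT+bskDN tumours they were 9.22, 9.36 and 9.32 (9.30 ± 0.075), and in scrib-+NACT tumours 10.64, 10.56 and 10.54 (10.58 ± 0.054). All 9 arrays of scrib mutant tumours without bskDN thus lay above a log2 signal of 10, and the tumours with bskDN and the ab discs formed a lower band. The FRT control discs gave 6.76, 3.79 and 6.56 (5.71 ± 1.66), so that each of the 18 other arrays lay above each control array.

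**Figure D1:**
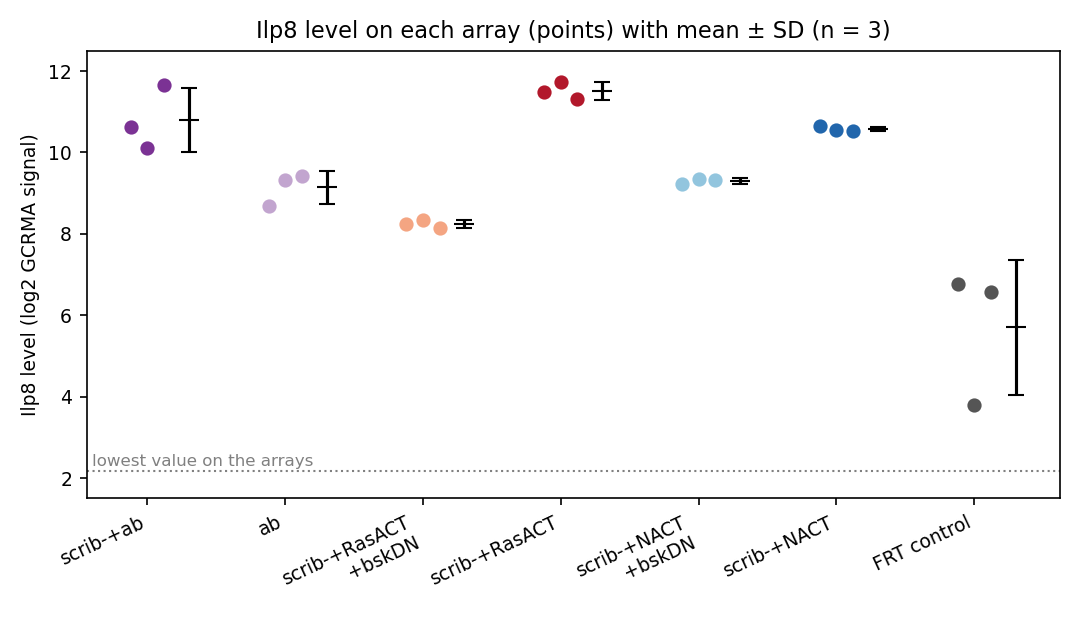
Ilp8 log2 GCRMA signal on each of the 21 arrays (points, vertical axis) by genotype (horizontal axis), with the mean and SD of the 3 arrays of a group beside them in black and the lowest array value, 2.17, as a dotted line. All 18 arrays of scrib mutant or Abrupt-expressing discs lie above the 3 control arrays, of which replicate 2 lies at 3.79.

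Neighbours in the order of the means were tested in the fit over all 21 arrays. scrib-+RasACT exceeded scrib-+ab by 0.71 on the log2 scale (95% interval -0.52 to 1.95, limma adjusted p = 0.438), which was not called, as against 17% of all tested probe sets. scrib-+ab exceeded scrib-+NACT by 0.22 (-1.02 to 1.46, adjusted p = 1, with 16.3% of probe sets called). scrib-+NACT+bskDN exceeded ab by 0.16 (-1.08 to 1.39, adjusted p = 1, with 18.6% called), and ab exceeded scrib-+RasACT+bskDN by 0.90 (-0.34 to 2.13, adjusted p = 0.303, with 16.9% called). None of these 4 pairs was called, with an SE of 0.58 that is shared over all 21 arrays, the widely spread control arrays included. Each interval reaches past 1 log2 unit, so a difference large enough for a call lies within it. By the arrays themselves, all 3 ab arrays lay above all 3 scrib-+RasACT+bskDN arrays, while the arrays of the other 3 pairs overlapped.

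The spread between replicate arrays was uneven. In the FRT control the SD of Ilp8, 1.66, was larger than that of 98.6% of the 438 probe sets whose control mean lay within 0.5 log2 units of it, and in scrib-+ab and ab it was larger than 99.5% and 96.1% of the probe sets of like level. In the 4 Ras and Notch groups it was larger than 17% to 53.5% of them. The control spread came from replicate 2, where Ilp8 lay 2.87 log2 units under the mean of the other 2 control arrays (6.66). That array was otherwise like its group: of 7560 probe sets with a control mean of at least 5, 6 lay over 2 log2 units lower there than on the other 2 arrays, and no other probe set fell as far as Ilp8. Control replicate 2 and scrib-+ab replicate 2, the arrays with the lowest Ilp8 of their groups, were also those with the highest signal of Ilp5, an insulin made by neurons of the brain: its log2 signal was 2.17, 7.47 and 2.17 in scrib-+ab, and 2.34, 6.57 and 2.17 in the FRT control. The part of this in the Ilp8 values was not tested.

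The question of the first comparison was which genes Abrupt changes alone and together with loss of scrib. Ilp8 was higher than in the control in both groups that expressed Abrupt. The scrib-+ab group differs from the control in scrib and Abrupt together, so its difference is not that of Abrupt alone. In scrib-+ab tumours it exceeded the FRT control by 5.09 ± 0.86 log2 units (SE, 95% interval 3.01 to 7.17, adjusted p = 0.00461), a 34.1-fold difference, in a comparison that called 17.2% of probe sets. In ab discs it exceeded the same control by 3.43 ± 0.86 (1.35 to 5.52, adjusted p = 0.0269), or 10.8-fold, where 14.5% of probe sets were called. Both share the 3 control arrays. Among 11982 genes ordered by their difference from the highest down, Ilp8 ranked 52 in scrib-+ab and 137 in ab. The scrib-+ab tumours were higher than ab discs by 1.66 ± 0.86, each array above each ab array, but with an interval of -0.43 to 3.74 and an adjusted p of 0.375 this was not called, against 4.28% of all probe sets. The call for ab discs was lost when any of the 3 ab arrays was left out (differences of 3.29 to 3.66, adjusted p of 0.059 to 0.083) and when ab and the control were fitted without scrib-+ab (adjusted p = 0.0647). The call for scrib-+ab was lost with array weights (difference 5.20, adjusted p = 0.0755).

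Genes marking haemocytes (the blood cells of the larva), muscle, and brain and glia moved with these groups. Of 5 haemocyte markers, 3 were called higher than the control both in scrib-+ab and in ab, and the list's mean log2 signal was 7.23 to 8.55 on scrib-+ab arrays and 7.16 to 7.96 on ab arrays against 5.47 to 6.26 on control arrays. Both measured muscle markers of 4 listed, Mlc2 and TpnC73F, were called higher in each, with list means of 9.04 to 9.55 and 7.45 to 8.41 against 4.80 to 6.15. Of 4 brain and glia markers, 3 were called lower and 1 higher in scrib-+ab, and 2 lower in ab, with list means of 6.73 to 7.52 and 6.61 to 7.14 against 8.36 to 8.55. Of the 8 eye-antennal markers, 4 were called lower and 2 higher in scrib-+ab, and 2 lower and 2 higher in ab. The shares of all probe sets called were 17.2% for scrib-+ab and 14.5% for ab. Those called higher were Dll and ct in both, but a second Dll probe set was called lower in scrib-+ab (-2.59). For ct the study reports the reverse: it lists the gene among repressed Abrupt targets, and Ct protein as repressed in scrib-+ab clones. Other probe sets of ct and of TpnC73F were not called in either group. None of these haemocyte, muscle, and brain and glia markers was at the lowest value on any array, and the part of the marker lists in the Ilp8 differences was not tested.

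The question of the second comparison was which genes respond to JNK in Ras and in Notch tumours. Ilp8 was lower with bskDN in both, and more so in the Ras tumours. In scrib-+RasACT+bskDN the log2 difference from scrib-+RasACT was -3.27 ± 0.10 (SE, -3.50 to -3.03, adjusted p = 6.82e-07), which is 9.62-fold lower, where 4.22% of probe sets were called. In scrib-+NACT+bskDN the log2 difference from scrib-+NACT was -1.28 ± 0.10 (-1.51 to -1.04, adjusted p = 8.86e-05), or 2.43-fold lower, with 5.37% called. In neither pair did the arrays with and without bskDN overlap. The Notch arrays carry the labels 1, A and B with bskDN and 1, 2 and A without, and nothing says whether letters and numbers are separate batches. Ilp8 was 9.22 against 10.64 on the pair of arrays labelled 1, and 9.36 against 10.54 on the pair labelled A. Counted from the most strongly lowered of 11982 genes, Ilp8 ranked 39 in the Ras tumours and 555 in the Notch tumours.

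The difference between both bskDN effects was itself tested as an interaction. It was -1.99 ± 0.15 on the log2 scale (-2.32 to -1.65, adjusted p = 0.000136), so that the fold decrease in Ras tumours was 3.96 times that in Notch tumours, and 4.51% of probe sets were called in this test. The order of the Ras and Notch tumours was opposite with and without bskDN. With bskDN, Ilp8 in the Ras tumours was below that in the Notch tumours by a log2 difference of -1.05 ± 0.10 (-1.29 to -0.82, adjusted p = 0.000165, 6.3% of probe sets called). Without bskDN, Ilp8 in the Ras tumours was above that in the Notch tumours by 0.93 ± 0.10 (0.70 to 1.17, adjusted p = 0.00164), which passed the test but not the limit of 1 log2 unit that a call also required, as against 1.97% of probe sets that met both. All 3 Ras arrays lay above all 3 Notch arrays without bskDN, and all 3 lay below them with it. These values come from the fit over the 12 Ras and Notch arrays, in which Ilp8 varied little. When the spread was instead shared with the control and Abrupt arrays, the same differences kept only the Ras call: the adjusted p was 0.194 for the Notch tumours, 0.192 for the interaction and 0.282 for Ras against Notch with bskDN.

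**Figure D2:**
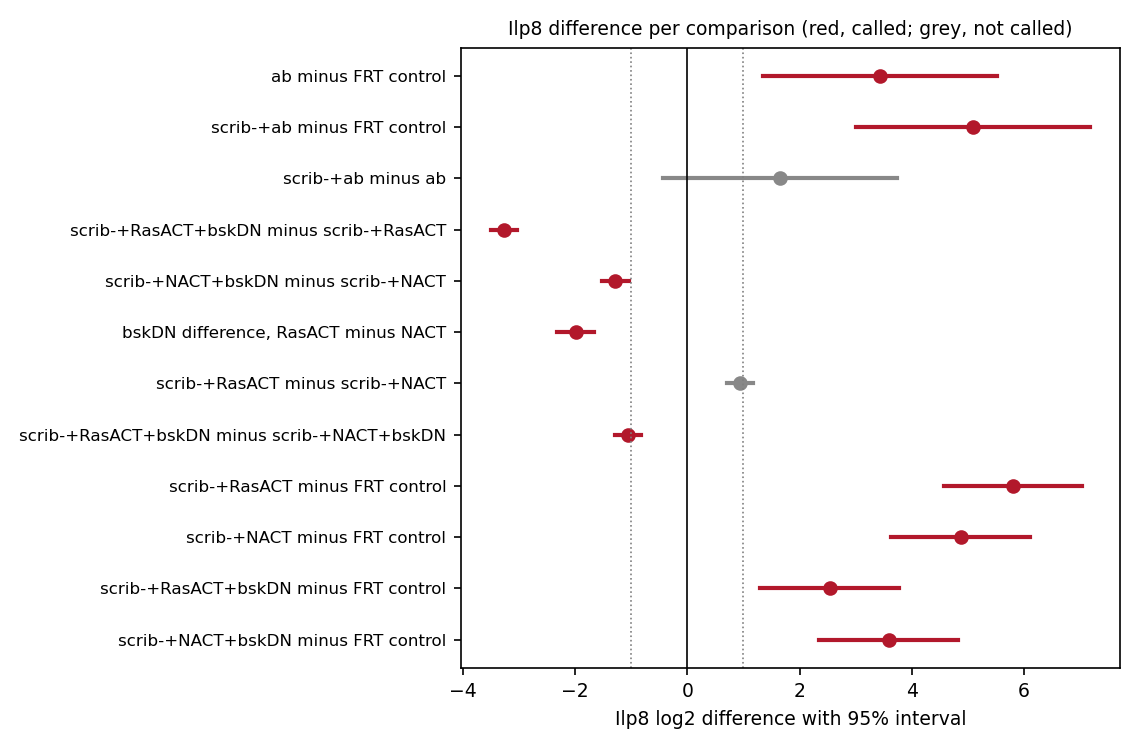
Log2 difference of Ilp8 (horizontal axis) with its 95% interval in 12 comparisons, each named as the first group minus the second, with dotted lines at a difference of 1 in either direction. Red marks the 10 comparisons that were called and grey the other 2, scrib-+ab minus ab and scrib-+RasACT minus scrib-+NACT.

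Dominant-negative Basket is itself read by the arrays as bsk, and checks the labels: the log2 signal of bsk was 15.76 to 15.81 in scrib-+RasACT+bskDN against 11.76 to 12.02 in scrib-+RasACT, and 15.75 to 15.82 in scrib-+NACT+bskDN against 11.48 to 11.60 in scrib-+NACT. Marker lists also held called members with bskDN, where 4.22% of all probe sets were called in the Ras tumours and 5.37% in the Notch tumours. In the Notch tumours 3 of 5 haemocyte markers were called lower (list means of 3.96 to 4.19 with bskDN against 5.87 to 7.16 without), as were both muscle markers (2.57 to 3.40 against 6.01 to 7.11). In the Ras tumours 1 of 5 haemocyte markers was called lower (4.87 to 6.09 against 5.88 to 7.22), and 1 of 2 muscle markers (4.86 to 6.47 against 7.46 to 7.84). A second probe set of the muscle marker TpnC73F had a log2 difference of 0 in both tumours. It also did in each Ras and Notch group against the control, so it is no check on the called change. Of 4 brain and glia markers, 1 was called higher and 2 lower with bskDN in the Notch tumours (7.01 to 7.40 against 8.38 to 8.73), and 2 higher and 1 lower in the Ras tumours (8.51 to 8.65 against 8.28 to 8.56). Of 3 salivary gland markers, 2 were called lower in the Notch tumours (4.48 to 4.59 against 6.58 to 6.95). The disc's own markers moved too: 2 of 8 eye-antennal markers were called lower in the Notch tumours (8.89 to 9.03 against 9.37 to 9.82). In the Ras tumours 1 of the 8 was called higher (9.80 to 9.85 against 9.15 to 9.76). Ring gland markers were called lower in 2 of 4 cases in the Notch tumours (7.42 to 7.58 against 8.16 to 9.47), and none was called in the Ras tumours. The part of these lists in the Ilp8 differences was not tested.

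Set against the FRT control, all 4 Ras and Notch groups had more Ilp8, and they share the 3 control arrays. In scrib-+RasACT tumours the difference was 5.80 ± 0.58 log2 units (4.57 to 7.04, adjusted p = 6.28e-06), 55.9-fold, with 6.43% of probe sets called. Only 2 genes, CG13215 and CG13606, had larger positive differences there, so that Ilp8 ranked 3 of 11982. In scrib-+NACT tumours the difference was 4.87 ± 0.58 (3.63 to 6.11, adjusted p = 4.79e-05), 29.2-fold, at rank 17, with 4.03% called. The tumours with bskDN were called higher than the control as well in this fit. In scrib-+NACT+bskDN the difference was 3.59 ± 0.58 (2.36 to 4.83, adjusted p = 0.000376), 12.1-fold, again at rank 17, with 5.71% called. In scrib-+RasACT+bskDN it was 2.54 ± 0.58 (1.30 to 3.77, adjusted p = 0.0107), 5.81-fold, at rank 57, with 3.38% called. Fitted alone with the control, 3 of the 4 calls were lost, with an adjusted p of 0.0606 for scrib-+NACT, 0.0705 for scrib-+NACT+bskDN and 0.221 for scrib-+RasACT+bskDN, while that of scrib-+RasACT was kept (0.0433). The sizes depend on control replicate 2: without it the difference of scrib-+RasACT+bskDN was 1.58 (adjusted p = 0.0089) and that of scrib-+RasACT was 4.85 (adjusted p = 5.1e-07).

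Genes of the JNK pathway were called lower with bskDN in larger number in the Notch tumours than in the Ras tumours. The list held 17 genes, of which 15 were measured, that is, given alone to a probe set by the array annotation. Mmp1 and zip had no such probe set and are not counted. The study does report Mmp1 as higher in scrib-+ab on these arrays, and by 1 probe set also in ab. Like the lists below, this list was chosen with results of these data known. In the Notch tumours 9 of the 15 were called lower with bskDN, where 5.37% of all probe sets were called, 307 higher and 701 lower. The 1 called higher was bsk itself, which reads the transgene. The median log2 difference was -1.67 against 0 over all probe sets. In the Ras tumours 3 were called lower and 2 higher, bsk and wgn, with a median of -0.10, where 4.22% of all probe sets were called, 458 higher and 334 lower. In the interaction, where Ilp8 was negative, 5 of the 15 were called positive and none negative, beside 618 positive and 229 negative calls over all probe sets (4.51%).

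Some JNK targets fell in both tumours. Ets21C, an ETS transcription factor induced by JNK, had a log2 difference of -4.67 ± 0.19 in the Ras tumours (adjusted p = 3.24e-06) and -4.04 ± 0.19 in the Notch tumours (adjusted p = 5.18e-06). puc, the phosphatase that feeds back on Basket, changed by -1.5 ± 0.18 and -2.28 ± 0.18 (adjusted p = 0.00127 and 8.86e-05), and cher, the fly filamin, by -1.71 ± 0.21 and -1.66 ± 0.21 (adjusted p = 0.00139 and 0.000964). Of 6 others called lower in the Notch tumours and not in the Ras tumours, 4 also had a called interaction. Atf3, a bZIP transcription factor, differed by -0.04 ± 0.29 in the Ras tumours and -2.72 ± 0.29 in the Notch tumours, with an interaction of 2.68 ± 0.41 (adjusted p = 0.00496). egr, the TNF ligand upstream of JNK, differed by 0.92 ± 0.14 and -1.67 ± 0.14, with an interaction of 2.58 ± 0.20 (adjusted p = 0.000172). The adaptor Traf4 and the JNK target scaf also had called interactions, of 2.33 ± 0.23 and 1.51 ± 0.22 (adjusted p = 0.000659 and 0.00417), though a second probe set of Traf4 was called higher in the Ras tumours and was not called in the Notch tumours. wgn, a TNF receptor, was called higher with bskDN in the Ras tumours (1.12 ± 0.11, adjusted p = 0.000454).

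Among other genes tied to Ilp8 transcription, upd1, a ligand of the JAK-STAT pathway, had a similar bskDN pattern. The log2 signal of upd1 was 5.50, 5.83 and 5.65 in scrib-+RasACT+bskDN against 8.18, 8.62 and 8.97 in scrib-+RasACT, and 8.04, 7.98 and 8.11 in scrib-+NACT+bskDN against 9.13, 8.78 and 8.74 in scrib-+NACT. Neither pair overlapped. The log2 difference of upd1 was -2.93 ± 0.19 in the Ras tumours (adjusted p = 5.06e-05) and -0.84 ± 0.19 in the Notch tumours (adjusted p = 0.0184, under the limit for a call), and the interaction was -2.09 ± 0.27 (adjusted p = 0.0024), beside -1.99 for Ilp8. Against the control upd1 was higher by 7.43 ± 0.37 in scrib-+ab, 4.94 ± 0.37 in ab, 3.61 ± 0.29 in scrib-+RasACT and 3.91 ± 0.29 in scrib-+NACT, with adjusted p of 2.91e-05, 0.000178, 7.88e-07 and 7.25e-07. upd1 was called higher in scrib-+ab than in ab (2.49 ± 0.37, adjusted p = 0.0102), where Ilp8 missed the threshold. Of the 9 measured genes in this list of 15, the interaction called upd1 alone, beside 4.51% of all probe sets. The Hippo pathway genes ex and kibra, both known targets of Yorkie, were higher in scrib-+ab than in the control by 1.47 ± 0.19 and 2.59 ± 0.23 (adjusted p = 0.00132 and 0.000284), and neither was called in the bskDN comparisons by the probe set used here, while a second kibra probe set was called lower with bskDN in the Notch tumours.

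**Figure D3:**
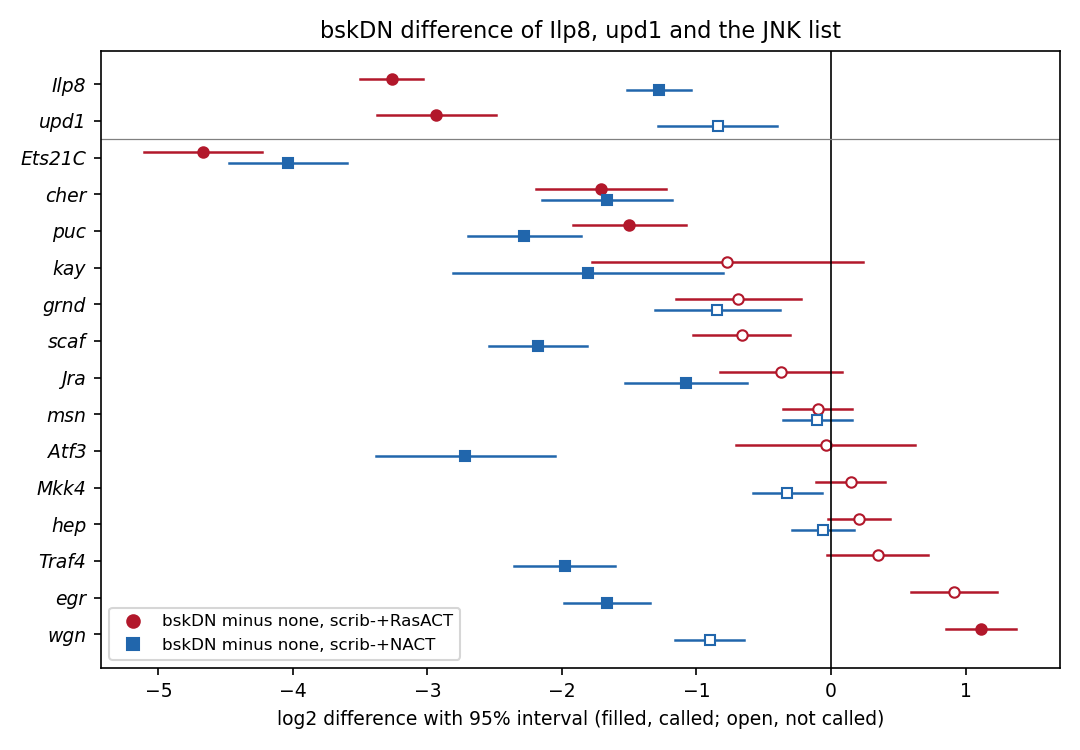
Log2 difference with bskDN minus without (horizontal axis, with 95% intervals) for Ilp8, upd1 and 14 measured genes of the JNK list other than bsk, in scrib-+RasACT (red circles) and scrib-+NACT (blue squares), filled where called. Ilp8 and upd1 lie further left in the Ras tumours, while Atf3, egr, Traf4, scaf and puc lie further left in the Notch tumours.

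Of 14 other insulin and relaxin family genes listed, 9 were measured, 3 of them peptides (Ilp2, Ilp5 and Ilp7). None of these 3 peptides was called in any of the 12 comparisons. With 1.97% to 17.2% of all probe sets called there, a count of 0 of 3 is near those shares. Ilp5 sat at the lowest value on 13 arrays. Ilp7 sat at the lowest value on 20 of 21 arrays and reached 2.18. Lgr3, the Ilp8 receptor, was at the lowest value on 18 arrays and reached 2.31, and Lgr4, a related receptor, was there on 19 and reached 2.19. The receptor was therefore at or near the lowest value in every group. InR, the insulin receptor, was lower than the control by a log2 difference of -2.44 ± 0.35 in scrib-+ab and -1.93 ± 0.35 in ab (adjusted p = 0.00233 and 0.00754), and ImpL2, a secreted protein that binds insulins, by -1.86 ± 0.43 and -1.87 ± 0.43 (adjusted p = 0.0174 and 0.0185). Sdr, a secreted decoy of the insulin receptor, went the other way from Ilp8 with bskDN: it was higher by 1.23 ± 0.28 in the Ras tumours (adjusted p = 0.0272) and by 1.99 ± 0.28 in the Notch tumours (adjusted p = 0.00178). Against the control Sdr was lower by a log2 difference of -1.60 ± 0.26 in scrib-+RasACT and -1.37 ± 0.26 in scrib-+NACT (adjusted p = 0.00039 and 0.00219).

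Ecdysone genes were examined because Ilp8 is known to act on the ring gland. Transcripts of ecdysone synthesis, a defining feature of the ring gland, were present in these samples: the log2 signal of spok, a cytochrome P450 of the pathway, was 10.72 to 11.23 in scrib-+ab, 12.09 to 12.60 in ab and 13.58 to 14.25 in the FRT control, and 4 ring gland markers (phtm, dib, sad and nvd) had a mean of 7.42 to 11.3 over all arrays. Which tissue these transcripts came from, and their part in the results, was not tested. In scrib-+ab 4 of the 12 genes were called lower than in the control and 2 higher, in ab 2 lower and 1 higher, in scrib-+RasACT 5 lower and none higher, and in scrib-+NACT 6 lower and 1 higher. phtm and spok, both P450 genes of the pathway, were called lower in all 4. The shares of all probe sets called in these 4 comparisons were 17.2%, 14.5%, 6.43% and 4.03%. scrib-+NACT+bskDN had 4 called lower than scrib-+NACT (5.37% of all probe sets called) and 8 lower than the control (5.71%). scrib-+RasACT+bskDN had none of the 12 called against scrib-+RasACT or against the control, where 4.22% and 3.38% of all probe sets were called, and a count of 0 is near those shares.

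Members of the ecdysone response list were called lower more often than higher in the tumours without bskDN, and also in scrib-+RasACT+bskDN against the control. Of 14 measured genes of 17, 7 were called lower and none higher in scrib-+ab than in ab, with a median log2 difference of -2.81, where 4.28% of all probe sets were called. Eip74EF, Eip75B and ImpL3 were not matched to a probe set and are not counted. The study reports Eip75B as lower than the control in scrib-+ab and in ab on these arrays. Against the control, 6 were called lower and 1 higher in scrib-+ab (17.2% of all probe sets called), and 1 lower and 2 higher in ab (14.5%). These counts use 1 probe set per gene. In scrib-+ab, br and Hr39 were not called by it, while other probe sets of both were called lower (down to -4.20 and -3.46), and a second ftz-f1 probe set was called higher (1.99). In ab, another Hr39 probe set was called lower (-2.84) and another Hr4 probe set higher (3.17). Also against the control, 7 were called lower in scrib-+RasACT (6.43%) and 8 in scrib-+NACT (4.03%), with 1 higher in each. With bskDN, 4 were called higher and none lower in the Ras tumours, and 6 higher and 1 lower in the Notch tumours, beside 4.22% and 5.37% of all probe sets. Here too other probe sets differed from those counted. In the Ras tumours a second ftz-f1 probe set was called lower (-1.12). Some other ImpE1 probe sets were called higher there, while the counted probe set was not called. In the Notch tumours the other br probe sets were called higher (1.30 to 1.98), while the counted probe set was not called (0.52). Hr4 was called higher in both tumours by its counted probe set only. Eip78C, a nuclear receptor induced by ecdysone, had a log2 signal of 2.48, 2.17 and 2.56 in scrib-+ab, 5.07, 4.30 and 4.70 in ab, and 6.07, 7.91 and 7.42 in the FRT control. With bskDN it was higher by 2.77 ± 0.27 in the Ras tumours (adjusted p = 0.000391) and by 3.53 ± 0.27 in the Notch tumours (adjusted p = 7.27e-05). Blimp-1, a repressor induced by the hormone, was higher with bskDN in the Notch tumours by 4.77 ± 0.48 (adjusted p = 0.000289) and lower in scrib-+ab than in the control, with a log2 difference of -5.54 ± 0.63 (adjusted p = 0.000825). In scrib-+RasACT+bskDN against the control 4 of the 14 were called lower and none higher, where 3.38% of all probe sets were called. In scrib-+NACT+bskDN against the control none of the 14 was called, a count near the 5.71% of all probe sets called there.

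Genes whose pattern was most like that of Ilp8 were sought by Pearson correlation over the 21 arrays, among 1704 genes with a highest group mean of at least 6 and a range of group means of at least 2. The points share arrays and groups, and r is given as a description. CG14984 was first with r = 0.95, and kept r = 0.76 for deviations from the group means, r = 0.88 over the 18 arrays without the control and r = 0.97 over the 15 arrays other than scrib-+ab and ab. Its log2 signal was 11.59, 11.88 and 12.25 in scrib-+ab, 11.12, 11.36 and 11.21 in ab, 10.36, 10.30 and 10.71 in scrib-+RasACT+bskDN, 11.66, 11.63 and 11.63 in scrib-+RasACT, 10.96, 11.12 and 10.99 in scrib-+NACT+bskDN, 11.77, 11.68 and 11.65 in scrib-+NACT, and 9.80, 9.06 and 9.60 in the FRT control. CG14984 thus had its lowest array where Ilp8 did, at control replicate 2. Its highest array was scrib-+ab replicate 3, while that of Ilp8 was scrib-+RasACT replicate 2. It was called lower with bskDN in the Ras tumours (-1.18 ± 0.099, adjusted p = 0.00017), and the Notch difference of -0.68 ± 0.099 (adjusted p = 0.00198) was under the limit for a call. The next most alike were CG17104, CG42675, tut, CG12379, Pdp1, CG11158, Zip102B, pinta and CG31955, with r from 0.86 to 0.80, and their r for deviations from the group means ran from -0.44 (Zip102B) to 0.69 (CG12379). Without the control arrays only 2 of the 10, CG14984 and CG17104, stayed among the 10 most alike.

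The genes least alike were Gbs-70E (r = -0.91), CG42240 (-0.87), Eip78C (-0.85), sev (-0.85) and CG9416 (-0.84). sev, the receptor tyrosine kinase of the R7 photoreceptor, is a gene of eye differentiation. Gbs-70E, a glycogen-binding subunit of protein phosphatase 1, had its highest signal on control replicate 2 (8.35, beside 6.83 and 7.97 on the other control arrays) and its lowest on scrib-+ab replicate 3 (3.44, beside 3.77 and 4.08), the arrays on which Ilp8 was at its lowest and, within scrib-+ab, its highest. Within those groups Gbs-70E and Ilp8 ran in opposite directions, but in scrib-+RasACT+bskDN both were lowest on replicate 3 (5.44 and 8.14). For deviations from the group means over all 21 arrays r was -0.49. Gbs-70E was picked by its r over these same arrays, so these values are a description only.

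**Figure D4:**
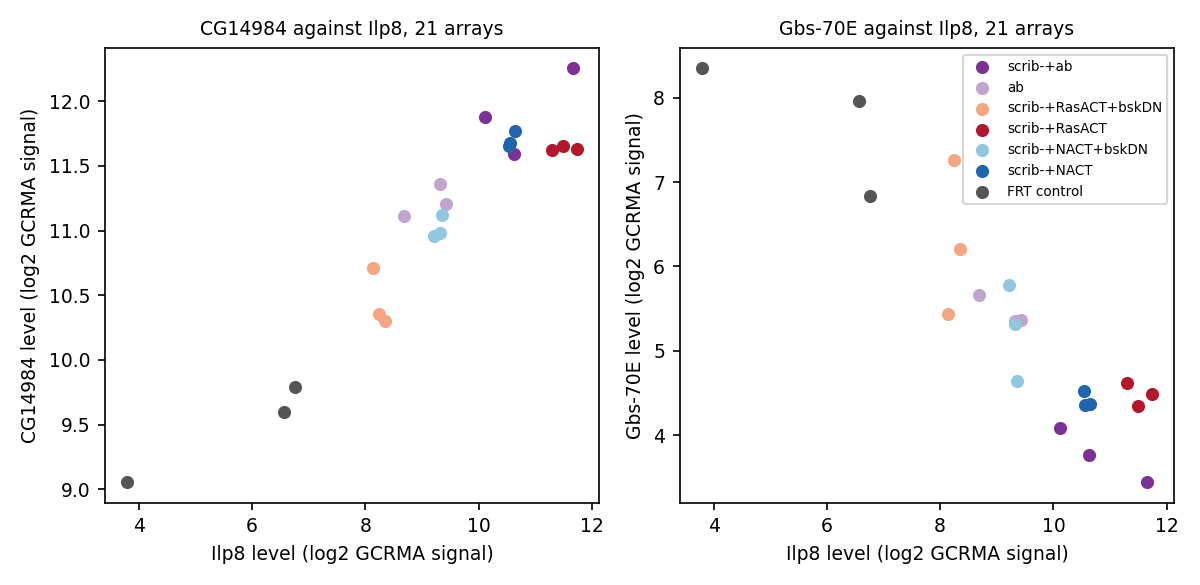
Log2 GCRMA signal of CG14984 (left panel) and Gbs-70E (right panel) on the vertical axis against that of Ilp8 on the horizontal axis, with 1 point for each of the 21 arrays, coloured by genotype. CG14984 rises with Ilp8 (r = 0.95) and Gbs-70E falls with it (r = -0.91), with the control arrays at the left end of both panels.

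The genes beside Ilp8 on 3L did not share its pattern throughout. CG7730, whose annotated end overlaps Ilp8 by 3 bases, was lower with bskDN in the Ras tumours by a log2 difference of -1.19 ± 0.20 (adjusted p = 0.00581) and higher in scrib-+RasACT than in the control by 1.15 ± 0.19 (adjusted p = 0.000503), but differed from the control by -0.24 ± 0.18 in scrib-+ab and -0.10 ± 0.18 in ab (adjusted p = 0.475 and 1). beg, the nearest measured gene on the other side, was called lower with bskDN in the Ras tumours (-1.07 ± 0.092, adjusted p = 0.000191) and higher in scrib-+RasACT than in the control (1.39 ± 0.43, adjusted p = 0.0337), while in ab discs, where Ilp8 was higher, it was lower than in the control (-2.74 ± 0.65, adjusted p = 0.021). Fit2 was not called in any of the 12 comparisons, and a10 stayed between 2.17 and 2.24 on all arrays. The long non-coding RNA genes CR45756, which overlaps Ilp8 by 26 bases, and CR43250 were not matched to a probe set.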

How the data were processed

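Biotinylated cRNA from total RNA was read on Affymetrix GeneChip Drosophila 2.0 arrays. The authors deposited a log2 signal for each probe set, computed with GCRMA, which corrects the background by probe sequence, applies quantile normalization and summarises the probes of a set; its version was not stated, and which arrays were normalized together is not given in the sources used here. Of 18952 probe sets, 183 AFFX controls were left out and 18769 entered every test without a filter on low values. limma 3.58.1 under R 4.3.3 (lmFit, eBayes) fitted the group means: 9 arrays for scrib-+ab, ab and the control, 12 arrays for the Ras and Notch groups with and without bskDN, and all 21 arrays for Ras and Notch groups against the control and for neighbours in the order of levels. A call required a Benjamini-Hochberg adjusted p under 0.05 over all tested probe sets and an absolute log2 difference over 1, the thresholds of the study. Percentages of probe sets called count both directions. Arrays carry no read depth, and the 3 arrays per group limit the precision.

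Symbols came from the array annotation, updated through the RefSeq table of Release 6 plus ISO1 MT: 13647 probe sets had 1 symbol, 402 several and 4720 none. A gene other than Ilp8 is represented by its probe set with the highest mean. A listed gene counts as measured where the annotation gave a probe set to it alone, so other listed genes may still have probe sets on the array. Named list genes were those with the largest called changes and the ligands, receptors and regulators described. Ilp8, the gene lists and the tests were chosen with earlier results of these data known. The test was checked on simulated data. Replicate numbers may pair scrib-+RasACT with the control, where deviations from the group means correlated over 7578 probe sets at 0.144, 0.144 and 0.24 for numbers 1, 2 and 3; in the other comparisons the numbers did not pair the arrays. Alternatives were array weights, a trended robust fit, further quantile normalization, other sets of arrays in the fit, a filter on low values, a replicate block and leaving out each array.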

Additional observations from a re-analysis of the deposited data

Results flagged for a closer look

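One result met a rule for a second look, the difference between the bskDN effects on Ilp8 in the Ras and Notch tumours. The interaction was -1.987 on the log2 scale (limma adjusted p = 0.000136), from log2 differences of -3.27 in the Ras tumours and -1.28 in the Notch tumours. It was tested as a term of the 12-array fit, and all 3 arrays of each group lay on 1 side of all 3 arrays of its partner. With the spread shared over all 21 arrays its adjusted p was 0.192, and with a replicate block it was 0.0522.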

How the results depend on the processing

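Over the 12 Ilp8 comparisons 165 alternative values were computed, and none changed direction. The side of the threshold stayed the same in 151, a call was lost in 12 and gained in 2. Calls were lost for ab minus the control with both groups fitted alone (3.43, adjusted p = 0.0647), for scrib-+ab minus the control with array weights (5.20, 0.0755), and, fitted alone with the control, for scrib-+NACT (4.87, 0.0606), scrib-+RasACT+bskDN (2.54, 0.221) and scrib-+NACT+bskDN (3.59, 0.0705). The fit over all 21 arrays lost the bskDN effect in Notch tumours (-1.28, 0.194), the interaction (-1.99, 0.192) and Ras minus Notch with bskDN (-1.05, 0.282). A replicate block lost the interaction (-1.964, 0.0522) and changed no other Ilp8 call. Ras minus Notch without bskDN gained a call with array weights (1.10, 0.000114) and without scrib-+RasACT replicate 3 (1.04, 0.000463). The causes were not tested, except that fits of fewer arrays or with the control arrays use another estimate of the spread by construction.

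Leaving out 1 array at a time gave 2.478 to 3.963 for ab minus the control, with the call lost without each ab array, and 0.8222 to 1.039 for Ras minus Notch. Without control replicate 2 the differences from the control were lowest: 4.13 in scrib-+ab, 2.48 in ab, 4.85 in scrib-+RasACT, 3.91 in scrib-+NACT, 1.58 in scrib-+RasACT+bskDN and 2.63 in scrib-+NACT+bskDN.

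Counts over all probe sets that moved by more than 1.5 times were scrib-+ab minus ab (803, against 461 with both groups alone, 250 with a trended robust fit, 467 with array weights and 477 with the replicate block), bskDN in Ras (792, against 424 alone and 168 with the block), bskDN in Notch (1008, against 216 with the block), the interaction (847, against 1291 with weights and 61 with the block), Ras minus Notch (369, against 84 alone, 654 with weights and 600 without scrib-+RasACT replicate 3) and scrib-+RasACT minus the control (1207, against 625 alone). Further quantile normalization moved the split of higher and lower calls from 1629 and 1101 to 1334 and 1430 for ab minus the control, from 342 and 461 to 423 and 375 for scrib-+ab minus ab, from 618 and 229 to 531 and 417 for the interaction, from 800 and 383 to 690 and 585 for Ras minus Notch with bskDN, and from 296 and 776 to 448 and 638 for scrib-+NACT+bskDN minus the control.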
